A study of Mus musculus with 28 samples.

Results

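Chronic social stress was compared with its own controls over all genes in 16 of the 28 libraries of the series, 8 from stressed mice (CSS) and 8 from controls (CSS_control). All 16 were frontal cortex samples of male C57Bl/6 mice aged 21 weeks, 1 library a mouse, and their groups were taken from the treatment label and title of each sample. The CSS mice lived in social isolation for 7 weeks and were confronted with other mice 2 times a day over the final 20 days. The labels say only that controls were kept under control conditions, so effects of isolation and of confrontation cannot be told apart. The other 12 libraries belong to a second cohort of 30 or 31 weeks, 6 mice with induced type 2 diabetes (T2D; 75 mg/kg streptozotocin, which kills pancreatic beta cells, plus a high-fat diet, 43.2% of energy, for 21 weeks) and 6 controls. They enter only where the CSS change is set beside the T2D change. No mouse carried a labelled transgene or mutation.

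Repeated social defeat and isolation are standard rodent models of psychosocial stress. They raise circulating glucocorticoids, which act on the brain through the glucocorticoid and mineralocorticoid receptors, and the frontal cortex is among the regions that regulate and respond to this hormone axis. Cells under load also adjust RNA processing, ribosome assembly and protein folding through general programmes that are not tied to a single hormone.

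Library totals ran from 15.2 to 21.9 M estimated counts for CSS, and from 14.3 to 37.5 M for controls. The mean RNA integrity number was 9.62 and 9.52, and its exact permutation test, two-sided, missed the threshold (adjusted p = 0.822 over 9 library values). Markers of excitatory cortical neurons were present in every library, with a summed level of 2060 to 3040 CPM (counts per M) in CSS and 2130 to 2850 CPM in controls. Markers of striatal projection neurons, a neighbouring cell type, summed to 2020 to 2980 CPM in CSS and 2210 to 4180 CPM in controls. Each title carries an unexplained code of the form C1A1, and its first number was unevenly spread. The 8 controls had 4 libraries of number 1, 3 of number 2 and 1 of number 3, while CSS had 1, 1, 3 and 3 libraries of numbers 1 to 4. CSS 5 had the steepest relation of level to transcript length (0.105 log2 units per doubling, others in CSS −0.00827 to 0.0167). It also had the lowest RNA integrity number, 9.0. CSS_control 2 had the largest total.

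The comparison asked which frontal cortex genes change level after chronic social stress. Genes of RNA splicing, ribosome assembly, mitochondrial DNA and microglia were among those lower in CSS. Some genes of chromatin-modifying enzymes, endoplasmic reticulum chaperones, matrix proteins, axon guidance receptors and small non-coding RNAs were among those higher. Most members of each of these groups were not called. Endoplasmic reticulum chaperones had a median log2 change of 0.04, beside 0.005 over all genes. Matrix and axon guidance genes were called in 6.67% and 7.25%, not far above the 4.52% of all genes. Changes were small, with a median of 1.24-fold for higher and 1.23-fold for lower genes. By edgeR's quasi-likelihood test with Benjamini-Hochberg adjustment at 0.05, 318 genes were higher (2.11% of 15097) and 365 lower (2.42%), 4.52% in all. Of these, 52 were more than 1.5-fold higher and 22 more than 1.5-fold lower. All 8 CSS libraries lay on the side of the change, relative to the control mean, in 262 of the 318 higher and 346 of the 365 lower genes. Calling the genes from these libraries favours such counts, which were not made over all genes. Both groups' library values did not overlap in 92 genes (0.609%), which included 31 called higher and 57 called lower. Leaving out 1 library at a time gave 222 to 794 calls. The count moved by over 1.5 times without CSS 5 (360), CSS 6 (222), CSS 8 (439) or CSS_control 1 (276), 2 (251), 3 (402), 4 (429) or 5 (414). A core of 79 higher and 118 lower genes was called in all 16 of these fits.

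The calls depended on the title code. With its number as a factor, 2 genes were called (0.0132%), both higher, and 2006 (13.3%) had an unadjusted p under 0.05. That fit takes the contrast from the 5 CSS libraries of numbers 1 to 3, because no control has number 4. Without the 4 controls of number 1, edgeR called 0 genes, with 1971 at an unadjusted p under 0.05. All 683 genes kept their sign with the code as a factor, with a median absolute log2 change of 0.248 beside 0.3, and 566 had an unadjusted p under 0.05. These genes were called from the same libraries, which favours both results, so neither is separate support for the calls. When each library was placed on the genes called without it, on a scale from 0 (mean of the remaining controls) to 1 (mean of the remaining CSS libraries), controls of number 1 lay between −0.32 and 0.17. Controls of numbers 2 and 3 lay between 0.16 and 0.53. The CSS libraries of numbers 1 and 2 lay at 0.56 and 0.55, and the other 6 at 0.66 or above. All 8 CSS libraries were thus above all 8 controls on this pooled scale, where each library has its own set of genes. The groups overlapped when directions were taken apart. On the higher genes CSS 2 (0.4) lay below CSS_control 8 (0.48), and on the lower genes CSS 1 (0.53) lay below CSS_control 6 (0.64). Among CSS libraries those of numbers 3 and 4 covered similar ranges, and numbers 1 and 2 had 1 library each. The part of the code in the calls was not tested beyond these fits, and group and code cannot be told apart for the 3 CSS libraries of number 4.

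**Figure D1:**
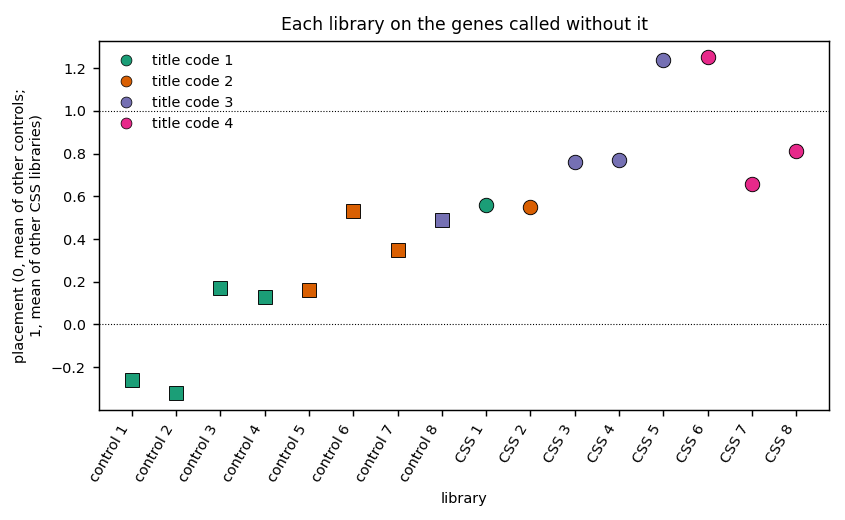
Placement of each library (x axis) on the genes called without it (y axis, no unit; 0 is the mean of the remaining controls and 1 that of the remaining CSS libraries); squares are controls, circles CSS, and colours the number in the title code. Controls range from −0.32 to 0.53 and CSS libraries start at 0.55.

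Spred1 and Dnajb5 were the 2 genes called with and without the title code as a factor. Spred1 (ENSMUSG00000027351) encodes an inhibitor of the Ras and ERK pathway. Its level was 211 to 253 CPM in controls (median 235) and 259 to 359 CPM in CSS (median 296). Every CSS library was above every control, and CSS 2 was the highest. The log2 change was 0.36 ± 0.06 (SE; adjusted p = 0.00660), and 0.42 with the code as a factor (adjusted p = 0.0263). Dnajb5 encodes an HSP40 co-chaperone of heat shock protein 70. Its level was 48.3 to 79.8 CPM in controls (median 56.5) and 63.5 to 108 CPM in CSS (median 78.5). Groups overlapped, with CSS 1 and CSS 2 above the rest and CSS_control 5 the highest control. Its log2 change was 0.47 ± 0.12 (adjusted p = 0.0322), and 0.67 with the code as a factor (adjusted p = 0.0393). It was called in 9 of the 16 fits that left out 1 library, not without CSS 1, 6 or 8 or CSS_control 1, 2, 3 or 4 (adjusted p up to 0.0685), and Spred1 in all 16.

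The 250 bases before the start of each of these 2 genes are shown because they alone kept their call with the code as a factor (plus strand, GRCm38.p6, from RefSeq; Spred1 at chr2:117120821-117121070, and for Dnajb5 the first by position of its 3 annotated starts, chr4:42949617-42949866). Capitals mark GGGCGG, the GC box bound by Sp factors, and CCAAT, the box bound by NF-Y, on either strand.
Spred1: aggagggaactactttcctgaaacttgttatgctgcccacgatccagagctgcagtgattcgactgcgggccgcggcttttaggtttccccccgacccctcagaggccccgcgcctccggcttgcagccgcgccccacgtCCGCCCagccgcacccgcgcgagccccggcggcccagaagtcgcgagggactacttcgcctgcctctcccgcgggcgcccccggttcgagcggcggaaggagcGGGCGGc
Dnajb5: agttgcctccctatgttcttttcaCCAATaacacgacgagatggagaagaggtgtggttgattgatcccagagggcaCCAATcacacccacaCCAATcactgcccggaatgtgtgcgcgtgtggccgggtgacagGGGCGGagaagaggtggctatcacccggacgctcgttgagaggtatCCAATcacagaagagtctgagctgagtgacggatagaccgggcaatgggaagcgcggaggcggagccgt
The Spred1 stretch held 2 GC boxes and 0 CCAAT boxes, and that of Dnajb5 1 and 4. Over 300-base windows (250 before to 50 after a start), GGGCGG was present in 60.4% of 14467 windows of all tested genes, 69.1% of 265 windows of higher genes and 60.9% of 361 windows of lower genes. CCAAT was present in 37.6%, 36.6% and 42.7%. The cyclic AMP response half-site TGACGT, which overlaps the full site TGACGTCA, was present in 10.9%, 9.81% and 15.5%, and the E-box CACGTG of clock factors in 9.50%, 7.17% and 9.42%. Both strands were searched, and windows of 218 of 318 higher and 281 of 365 lower genes were found.

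Among the other higher genes, Slc38a2 encodes a sodium-coupled transporter of neutral amino acids. Its level was 75.7 to 111 CPM in controls (median 99.1) and 111 to 143 CPM in CSS (median 126). No CSS library fell within the control range, and CSS 1 and CSS 2 were the highest (log2 0.41 ± 0.07, adjusted p = 0.00903). Gpr17, a receptor found on maturing oligodendrocyte precursors, ran from 24.8 to 30.9 CPM in controls (median 27.7) and from 31.5 to 43.3 CPM in CSS (median 37.7). The groups did not overlap, and CSS 8 was the highest (log2 0.40 ± 0.07, adjusted p = 0.00903). Anks1, an ankyrin repeat adaptor of receptor tyrosine kinases, stood at 23.3 to 30.6 CPM in controls (median 29.1) and 33.0 to 42.2 CPM in CSS (median 36.4). It too had no overlap (log2 0.39, adjusted p = 0.00660).

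Kdm6b encodes a demethylase of lysine 27 of histone H3. Its level was 5.70 to 9.52 CPM in controls (median 7.66) and 7.94 to 20.0 CPM in CSS (median 12.7), with CSS 7 inside the control range and CSS 5 the highest (log2 0.82 ± 0.15, adjusted p = 0.00999). Per2, a repressor of the circadian clock, stood between 26.2 and 33.6 CPM in controls (median 28.5) and between 27.9 and 80.8 CPM in CSS (median 54.1). CSS 7 lay among the controls and CSS 2 above all others (log2 0.82 ± 0.15, adjusted p = 0.0106). Banp, a nuclear matrix and promoter-binding protein, had 17.8 to 21.4 CPM in controls (median 19.9) and 19.9 to 38.01 CPM in CSS (median 30.5). CSS 7 lay within the control range (log2 0.59, adjusted p = 0.00915).

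These genes come from a rule that took the 15 called genes of smallest p in each direction. It also took the X-linked zinc finger factor gene Zfx (log2 0.48), Ankrd10 (0.33), the podosome adaptor gene Sh3pxd2b (0.51), Tmed8 (0.27) and the ubiquitin ligase gene Rnf217 (0.37), with adjusted p between 0.00903 and 0.0106. Scarna6, Col1a1 and Dnajc3 are described with their groups.

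**Figure D2:**
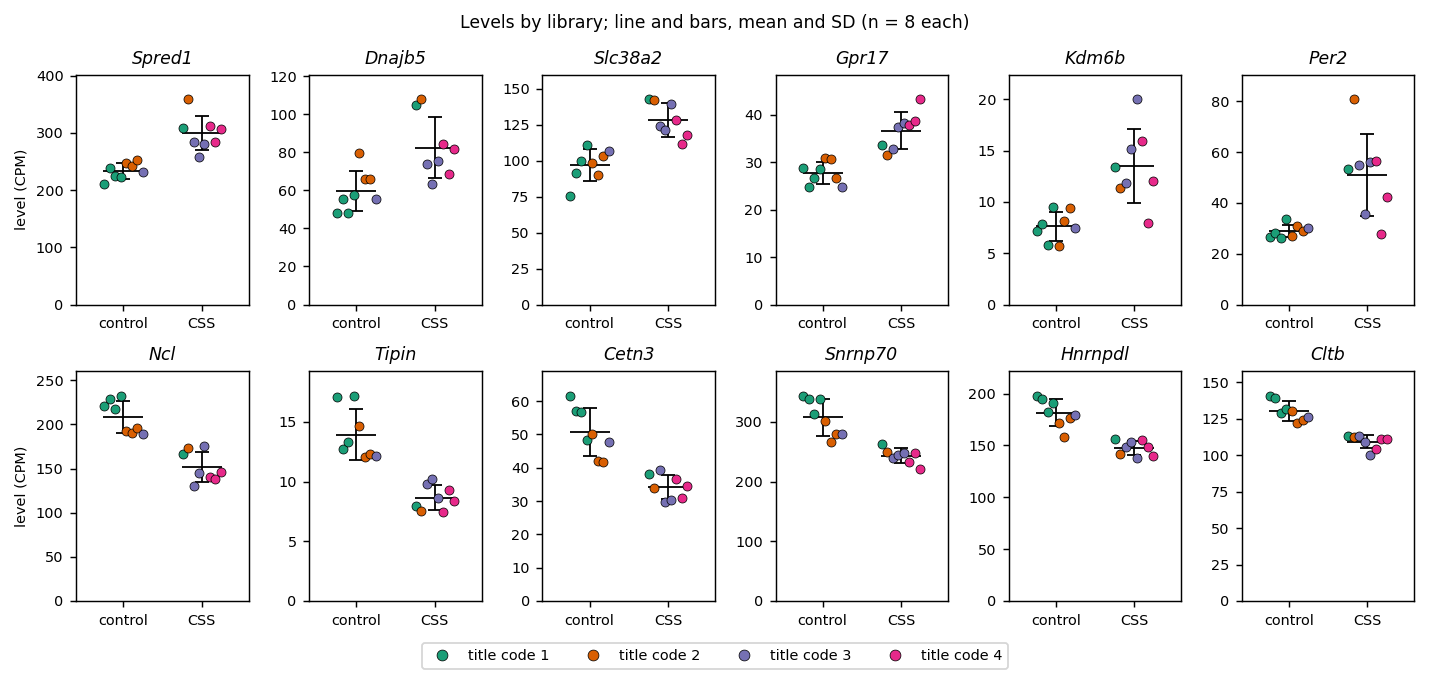
Level of 12 genes (CPM, y axis from 0) in each library of both groups (x axis), coloured by the number in the title code; horizontal lines and bars give the mean and SD (n = 8 each). The upper 6 genes were higher in CSS and the lower 6 were lower; controls of number 1 are the 4 highest controls of Ncl and Hnrnpdl.

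Among the lower genes, Ncl encodes nucleolin, a protein of the nucleolus that acts in ribosomal RNA production. Its level was 189 to 233 CPM in controls (median 207) and 130.5 to 176 CPM in CSS (median 145). The groups did not overlap (log2 −0.46 ± 0.07, adjusted p = 0.00555). Controls of code number 1 stood at 218 to 233 CPM and the other 4 at 189 to 196 CPM, so that the 2 sets of controls did not overlap either. Tipin, a partner of Timeless at replication forks, went from 12.03 to 17.2 CPM in controls (median 13.02) down to 7.45 to 10.3 CPM in CSS (median 8.54). No CSS library reached the lowest control (log2 −0.68 ± 0.10, adjusted p = 0.00545). Cetn3, a centrin of the centrosome, had 41.7 to 61.7 CPM in controls (median 49.2) and 29.8 to 39.2 CPM in CSS (median 34.3). It had no overlap (log2 −0.57 ± 0.09, adjusted p = 0.00555). Pdap1 (log2 −0.51), the spliceosome factor gene Zmat2 (−0.46), Dnajc8, a DnaJ protein of splicing complexes (−0.54), and Cltb, a clathrin light chain (−0.26), also fell. So did Srp54a of the signal recognition particle (−0.43) and the p97 cofactor gene Ubxn1 (−0.43). Taf9, a TFIID subunit, had a log2 change of −0.78, but it shares 73.8% of its exon bases with Ak6 on the same strand and is uncertain.

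No call among these 30 leading genes was lost in the 16 fits with a library left out, but some were lost with length settings. With length offsets Tmed8 and Rnf217 did not pass (adjusted p = 0.0528 and 0.0659). With the length slope as a covariate Kdm6b, Per2, Sh3pxd2b and Col1a1 did not (adjusted p = 0.0827, 0.0671, 0.0564 and 0.0518). With the title code as a factor, adjusted p was 0.0672 to 0.216 for the 29 other than Spred1. Their log2 changes kept their sign, which their choice from the same libraries favours. In 9 of the 15 lower genes the 4 controls of code number 1 were all above the other 4 controls (Ncl, Pdap1, Dnajc8, BC005624, Hnrnpdl, C2cd2l, Srp54a, Snrnp70 and Ubxn1). That split of the controls was seen in 66 of all 365 lower genes (18.1%) and in 751 of 15097 tested genes (4.97%). The opposite split, number 1 below the rest, was seen in 33 of 318 higher genes (10.4%) and 5.49% of all.

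Higher and lower genes differed in transcript length. The longest annotated transcript had a median of 5444 bases in higher genes, 2452 in lower genes and 3419 in all. Genes were divided into 5 bins of equal size by this length. In the shortest bin (up to 1957 bases) 33 were higher and 135 lower, with a median log2 change of −0.05. In the longest bin (from 5328 bases) 164 were higher and 20 lower, with a median of 0.07. The slope of log2 level on transcript length was 0.0192 ± 0.0357 per doubling in CSS and −0.0192 ± 0.0214 in controls (SD, n = 8 each; two-sided exact permutation p = 0.00233, adjusted p = 0.0105). CSS ran from −0.00827 to 0.105 and controls from −0.0638 to 0.00271, so that the groups overlapped, with CSS 5 the highest and CSS_control 5 the lowest. Without these 2 libraries 232 genes were called, 42 higher and 9 lower in the longest bin and 19 and 52 in the shortest. When the length trend of each library was removed by offsets, 181 genes were higher (1.2%) and 255 lower (1.69%), 367 of them among the 683. The shortest bin then had 52 higher and 61 lower, and the longest 35 and 50. The offsets take out the trend by construction, so these bin counts do not test it. With the slope as a covariate 246 were called, 125 of them among the 683. The medians of T2D over the same bins ran from −0.01 to 0.02. CSS 5, with the highest slope, also had the lowest RNA integrity number (9.0). The part of RNA quality or library preparation in the slope was not tested.

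**Figure D3:**
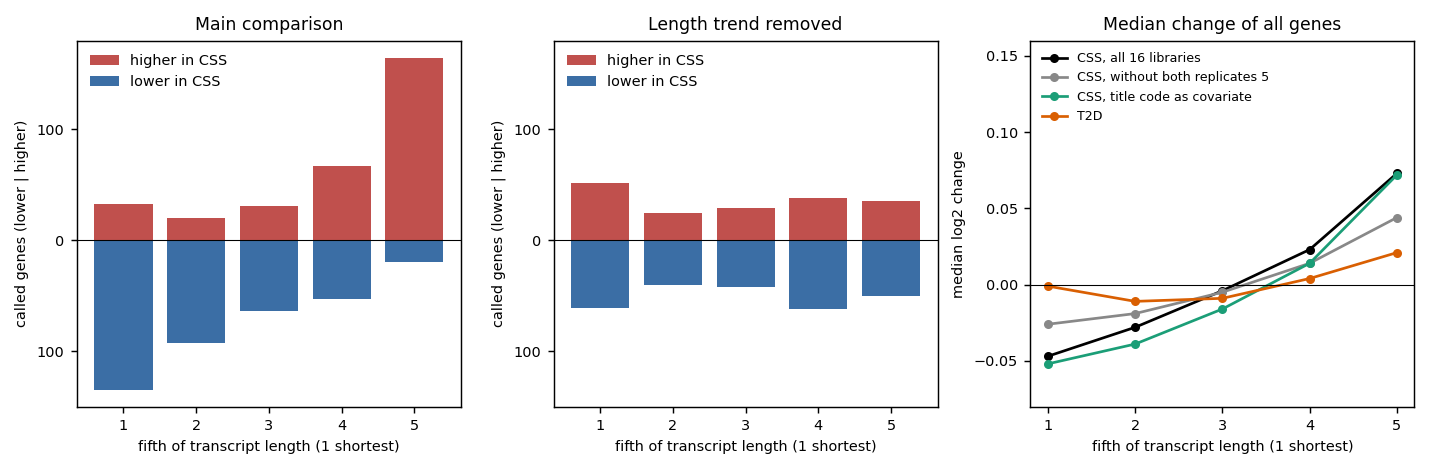
Called genes by bin of transcript length (x axis, 1 shortest) in the main comparison (left) and with the length trend removed (middle), as numbers of genes higher (upward) and lower (downward); the right panel gives the median log2 change of all genes in each bin under 4 fits. In the main comparison 164 genes of the longest bin were higher and 135 of the shortest were lower. With the trend taken out by construction these counts were 35 and 61.

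Genes of the nucleus moved in both directions. Of 88 genes of the spliceosome and of SR and hnRNP proteins, which bind and splice pre-mRNA, 11 fell and 1 rose, with a median log2 change of −0.08 beside 0.005 over all genes. The share called was 13.6%, beside 4.52% of all genes. With the length trend removed 10 fell and 1 rose. Snrnp70 encodes the 70K protein of the U1 particle, which recognises the start of an intron. Its level was 266 to 344 CPM in controls (median 308) and 220 to 264 CPM in CSS (median 246). The groups did not overlap, and the 4 controls of code number 1 were the 4 highest (log2 −0.34 ± 0.06, adjusted p = 0.00753). Luc7l3, another U1-associated factor, ran from 184.1 to 292 CPM in controls (median 238) and 156 to 207 CPM in CSS (median 171). CSS 1 lay within the control range (log2 −0.44 ± 0.09, adjusted p = 0.0126). Hnrnpdl (−0.30), Srsf5 (−0.27), Prpf31 (−0.29), Hnrnph2 (−0.27), Hnrnph3 (−0.34), Lsm6 (−0.43), Hnrnpab (−0.19), U2af1 (−0.22) and Hnrnpu (−0.17) also fell, while Hnrnpll rose (0.16). U2af1 kept its call in 6 of the 16 fits that left out 1 library, and Hnrnpu and Hnrnpll in 3.

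Calls among enzymes that modify histones were mostly higher, with 9.72% called beside 4.52% of all genes. Of 72 such genes 6 rose and 1 fell (median log2 0.04), and 3 rose and 1 fell with the length trend removed. Besides Kdm6b they were the deacetylase gene Hdac4 (0.34), the methyltransferase genes Kmt2c (0.31) and Nsd3 (0.24), the demethylase gene Kdm5b (0.19) and the acetyltransferase gene Ep300. The level of Ep300 was 53.6 to 81.4 CPM in controls (median 66.7) and 69.3 to 113 CPM in CSS (median 89.2). CSS 4 and CSS 7 lay within the control range and CSS 5 was the highest (log2 0.41 ± 0.10, adjusted p = 0.0252), and the call was lost without CSS 6, CSS_control 1 or CSS_control 2 (adjusted p up to 0.0586). Ep300, Nsd3 and Kdm5b did not pass with the length trend removed (adjusted p = 0.0517, 0.0615 and 0.160). The deacetylase gene Hdac3 fell (−0.17). Exons of Hdac4 overlap an antisense gene, Gm26720, in 22.4% of their bases, and whether counting used strand is not given in the sources used here.

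Of 52 nucleolar and ribosome assembly genes 6 fell and 0 rose (11.5% called, median −0.08), 3 and 0 with the length trend removed. They were Ncl, Nop53 (log2 −0.35), Gnl3 (−0.27), Utp3 (−0.34), Npm1, the nucleolar chaperone nucleophosmin (−0.26), and Nop14 (−0.28). Their summed level was 1790 to 1950 CPM in controls and 1660 to 1820 CPM in CSS. Other nuclear lists had shares near the 4.52% of all genes. Of 73 subunits of RNA polymerase II, TFIID and Mediator 3 fell and 0 rose (4.11% called), namely Taf9, Gtf2f1 (−0.35) and the TATA-binding protein gene Tbp (−0.37). Of 49 genes of DNA replication, the cell cycle and centrosomes 3 fell and 0 rose (6.12%), Tipin, Cetn3 and the kinetochore motor gene Cenpe (−0.99 log2 units). Of 40 chromatin remodelling factors 2 fell (5.0%; Ino80c and Smarcc2), and of 359 zinc finger genes 5 rose and 6 fell (3.06%).

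**Figure D4:**
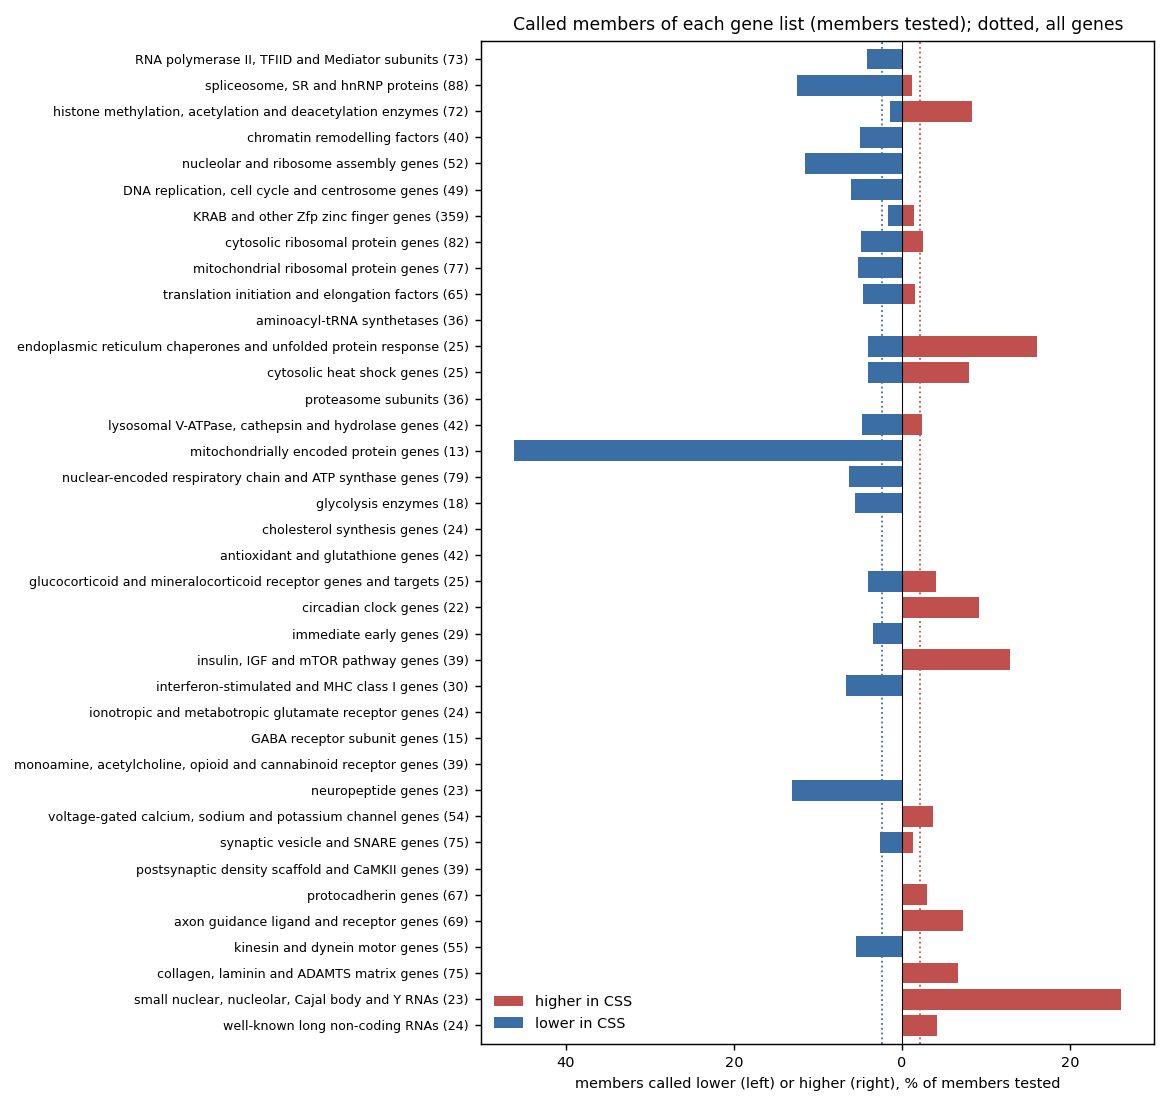
Share of the tested members of each gene list (y axis, number tested in parentheses) that were called higher (right) or lower (left) in CSS, in % of members (x axis); dotted lines give the shares over all genes, 2.11% and 2.42%. The lists were chosen with earlier results of these data known, and short lists move in large steps.

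Protein synthesis and folding genes did not move as a block. Of 82 cytosolic ribosomal protein genes 2 rose and 4 fell (7.32% called, beside 4.52% of all genes), with a median of 0.02. With the length trend removed 8 rose and 2 fell, so their direction turned with that setting. Rps26 (log2 −0.37), Rpl21 (−0.27) and Rpl23 (−0.27) were among those that fell, and Rps12 (0.38) and Rpl27 (0.41) rose. Such genes have many pseudogenes with which reads can be divided, so single values are uncertain. Of 77 mitochondrial ribosomal protein genes 4 fell and 0 rose (5.19% called, beside 4.52% of all genes), and 1 fell with the length trend removed. Of 65 translation factors 3 fell and 1 rose (6.15%), Eif4ebp2. This gene encodes a repressor of cap-dependent translation that mTOR inactivates. Its level was 14.7 to 23.7 CPM in controls (median 20.5) and 23.5 to 43.8 CPM in CSS (median 27.5), with CSS 7 at the edge of the control range and CSS 5 the highest (log2 0.55 ± 0.12, adjusted p = 0.0180). Of 36 aminoacyl-tRNA synthetase genes and 36 proteasome genes none was called.

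Of 25 genes of endoplasmic reticulum chaperones and the unfolded protein response 4 rose and 1 fell (20.0% called, beside 4.52% of all genes). The median was 0.04, with 15 positive and 10 negative log2 changes. With the length trend removed 6 rose and 0 fell. Dnajc3 encodes a co-chaperone of the reticulum that also restrains the kinase PERK. Its level was 58.4 to 65.1 CPM in controls (median 59.6) and 62.9 to 83.0 CPM in CSS (median 74.7). CSS 7 alone lay within the control range (log2 0.28 ± 0.05, adjusted p = 0.00999). Hspa5, the reticulum's main heat shock protein 70, ran from 156 to 224.4 CPM in controls (median 181) and from 196 to 299 CPM in CSS (median 230). CSS 3, 4, 5 and 7 lay within the control range (log2 0.34 ± 0.09, adjusted p = 0.0412). Hspa5 kept its call in 6 of the 16 fits that left out 1 library, losing it without CSS 1, 2, 5, 6 or 8 or CSS_control 1, 2, 3, 4 or 8 (adjusted p up to 0.0871). Xbp1, a transcription factor of the response (0.27), and Creld2 (0.31) rose, and the disulfide isomerase gene P4hb fell (−0.23), but they kept their calls in only 5, 4 and 5 of those 16 fits. The other 20 members were not called. Of 25 cytosolic heat shock genes 2 rose, Dnajb1 (0.37) and Hspb1 (0.52), and 1 fell, the HSP70-interacting gene St13 (−0.40).

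Of the 51 gene lists, that of mitochondrial DNA had the largest share of lower genes. Of its 13 protein genes 6 fell and 0 rose (46.2% called, median −0.40), 2 of them with the length trend removed. The median with the title code as a factor was −0.14. mt-Nd6, the complex I subunit read from the light strand, had 42.6 to 74.3 CPM in controls (median 57.7) and 16.9 to 43.2 CPM in CSS (median 30.0). CSS 1 alone lay within the control range and CSS 3 was the lowest (log2 −0.89 ± 0.16, adjusted p = 0.00970). mt-Atp8, a small subunit of ATP synthase, ran from 343 to 515 CPM in controls (median 455) and from 225 to 368 CPM in CSS (median 294). CSS 1, 2 and 5 lay within the control range (log2 −0.51 ± 0.10, adjusted p = 0.0126). Mitochondrial DNA supplied a share of the counts of 6.84 ± 0.906% in CSS and 7.61 ± 0.645% in controls (SD, n = 8 each; exact permutation adjusted p = 0.191, and 0.0322 without CSS 1). Of 79 nuclear genes of the respiratory chain and ATP synthase 5 fell and 0 rose (6.33% called, beside 4.52% of all genes). The 5 were Ndufa10, Cox6b1, Ndufa12, Ndufa13 and Ndufa5. The list's median was −0.01, and with the length trend removed 3 rose and 2 fell. Of 18 glycolysis genes 1 fell (5.56% called), Gapdh (−0.19), and none of 24 cholesterol synthesis genes or 42 antioxidant genes was called.

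Of 25 genes of the glucocorticoid and mineralocorticoid receptors and their targets 1 rose and 1 fell (8.0%, beside 4.52% of all genes; median 0.03). Plin4, a lipid droplet coat protein, had 2.02 to 4.52 CPM in controls (median 3.94) and 3.65 to 9.51 CPM in CSS (median 6.78). CSS 7 and CSS 8 lay within the control range (log2 0.82 ± 0.19, adjusted p = 0.0227). The metal-binding metallothionein gene Mt1 had 74.1 to 100.1 CPM in controls (median 84.7) and 67.3 to 76.3 CPM in CSS (median 71.0). CSS 7 lay within the control range (log2 −0.30 ± 0.06, adjusted p = 0.0102). Fkbp5, the receptor co-chaperone often used as a readout of glucocorticoids, had a log2 change of 0.01 ± 0.08 (adjusted p = 0.972), with 20.3 to 28.4 CPM in controls and 21.3 to 29.1 CPM in CSS. The receptor genes Nr3c1 and Nr3c2 stood at 0.08 ± 0.09 and 0.09 ± 0.06 (adjusted p = 0.636 and 0.454). Fkbp5 and both receptor genes lay outside the naming rule and were chosen after their values were seen.

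Of 22 clock genes 2 rose and 0 fell (9.09% called, beside 4.52% of all genes), with a median of 0.08. They were Per2 and the kinase gene Csnk1d (0.25), while Cry1 stood at 0.33 (adjusted p = 0.0527). Of 29 immediate early genes, which neurons switch on with activity, 1 fell (3.45% called), Gadd45g (−0.44, adjusted p = 0.05), and the others were not called. The list's median was 0.19, or 0.32 with the title code as a factor, and 25 of the 29 log2 changes were positive. Gadd45g kept its call in 1 of the 16 fits that left out 1 library. Their summed level was 934 to 1940 CPM in CSS and 889 to 1310 CPM in controls, a wider range in CSS that still overlapped.

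Of 39 genes of insulin, IGF and mTOR signalling 5 rose and 0 fell (12.8% called, beside 4.52% of all genes). The median was 0.05, and with the length trend removed 1 rose and 1 fell. Irs2, an adaptor of the insulin receptor, had 41.2 to 52.6 CPM in controls (median 46.3) and 45.3 to 70.4 CPM in CSS (median 60.03). CSS 4 and CSS 7 lay within the control range and CSS 2 was the highest (log2 0.36 ± 0.09, adjusted p = 0.0288). The call of Irs2 was lost without CSS 5 or 6 or CSS_control 2, 3 or 4 (adjusted p up to 0.0686). The others were Eif4ebp2, the receptor genes Igf1r (0.26) and Igf2r (0.17), and Rptor, the substrate-binding subunit of mTOR complex 1 (0.20). Igf1r, Igf2r and Rptor kept their calls in 7, 3 and 2 of the 16 fits that left out 1 library.

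Calls among microglial genes were all lower. Of 20 markers of microglia, the macrophages of the brain, 7 fell and 0 rose (35.0% called, beside 4.52% of all genes). The median was −0.34, and 3 fell with the length trend removed. The summed level of the list was 467 to 549 CPM in controls and 255 to 487 CPM in CSS. Of the 20 markers, 9 were below the control mean in all 8 CSS libraries, a count not made over all genes. C1qa, a chain of the complement starter C1q, had 32.4 to 40.4 CPM in controls (median 35.2) and 15.4 to 31.0 CPM in CSS (median 28). The groups did not overlap and CSS 5 was the lowest (log2 −0.45 ± 0.11, adjusted p = 0.0274), and the call was lost without CSS 6 or CSS_control 2 (adjusted p up to 0.0619). The lysosomal gene Cd68 (−0.57), the protease gene Ctss (−0.49), the growth factor receptor gene Csf1r (−0.23), C1qb (−0.39), C1qc (−0.38) and the purine receptor gene P2ry13 (−0.52) also fell. Cd68 kept its call in all 16 fits that left out 1 library, Ctss and C1qb in 6, Csf1r and C1qc in 4, and P2ry13 in 3. With the title code as a factor the list's median was −0.22. The homeostatic genes P2ry12 (−0.43, adjusted p = 0.106) and Cx3cr1 (−0.20, 0.196), outside the rule and named after their values were seen, did not pass. In bulk tissue, fewer cells of a type and less RNA per cell cannot be told apart. The marker median in T2D, a cohort with its own controls, was −0.35, with 0 genes called there. Of 30 interferon-stimulated and MHC class I genes 2 fell and 0 rose (6.67% called, beside 4.52% of all genes). B2m, which encodes beta-2 microglobulin of class I molecules, stood at 48.7 to 55.6 CPM in controls (median 51.1) and 30.2 to 45.1 CPM in CSS (median 41.9), with no overlap (log2 −0.37 ± 0.07, adjusted p = 0.00970), and H2-K1 fell by 0.33.

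Markers of other cell types showed few calls. Of 17 meningeal fibroblast markers Col1a1 alone rose, all 17 log2 changes were positive, and the median was 0.50, with summed levels of 244 to 582 CPM in controls and 316 to 693 CPM in CSS. Endothelial markers had 2 higher (Mfsd2a and Slco1a4) and 1 lower (Ecscr) of 18, astrocyte markers 2 higher (Slc1a2 and Fgfr3) of 17 and oligodendrocyte precursor markers 2 higher (Gpr17 and Tnr) of 13. The shares called were 16.7%, 11.8% and 15.4%, beside 4.52% of all genes. None of 18 myelin, 13 pericyte, 20 striatal projection neuron, 7 red blood cell or 5 choroid plexus and ependymal genes was called. Red blood cell genes had the highest median of the 51 lists, 0.73 (0.26 with the title code as a factor), with 5 of 7 positive and summed levels of 345 to 475 CPM in controls and 337 to 771 CPM in CSS. Striatal projection neuron markers had a median of −0.21, with 19 of 20 negative. Of 13 listed leukocyte genes 1 was in the table, Ptprc, which microglia also express, at 4.39 to 8.22 CPM in CSS and 4.01 to 5.99 CPM in controls. The part of any of these cells in the other results was not tested.

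Calls among genes of the extracellular matrix and of axon guidance were all higher. The shares called, 6.67% and 7.25%, were not far above the 4.52% of all genes. Both lists have long transcripts (medians of 6046 and 5038 bases), and 5.45% of all genes in the longest length bin were called higher. Of 75 collagen, laminin and ADAMTS genes 5 rose and 0 fell (median 0.09), 3 and 0 with the length trend removed. Col1a1, a chain of fibrillar type I collagen, had 2.87 to 5.68 CPM in controls (median 4.36) and 4.34 to 14.8 CPM in CSS (median 8.65). CSS 2 lay within the control range and CSS 3 was the highest (log2 1.14 ± 0.21, adjusted p = 0.00999). Lamb2, a laminin chain of basement membranes, had 17.7 to 31.8 CPM in controls (median 21.4) and 23.1 to 41.1 CPM in CSS (median 36.9). CSS 3, 7 and 8 lay within the control range (log2 0.62 ± 0.14, adjusted p = 0.0213). Lamc3 (0.59), Adamtsl3 (0.91) and Col4a6 (0.84) completed the 5. Lamb2 lost its call without CSS 6, and Adamtsl3 and Col4a6 kept theirs in 7 and 5 of the 16 fits that left out 1 library. Of 69 axon guidance genes 5 rose and 0 fell (median 0.08), 3 and 0 with the length trend removed. They were Sema4d (0.36), the semaphorin and VEGF co-receptor gene Nrp1 (0.33), the plexin genes Plxna4 (0.27) and Plxnc1 (0.26), and the ephrin receptor gene Epha10 (0.34).

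Synaptic receptors gave no calls. None of 24 glutamate receptor genes, 15 GABA receptor genes, 39 receptor genes of monoamines, acetylcholine, opioids and cannabinoids or 39 postsynaptic density genes was called, with medians of 0.04, −0.04, 0.03 and 0.06. Of 54 voltage-gated channel genes 2 rose (3.7% called, beside 4.52% of all genes), the calcium channel genes Cacna1g (0.41) and Cacna1a (0.26). Neither passed with the length trend removed (adjusted p = 0.0694 and 0.0900). Of 75 synaptic vesicle and SNARE genes 2 fell and 1 rose (4.0% called). Among them 2 identifiers carry the symbol Rab3a, with values of −0.21 and 0.67, so that gene is uncertain. Of 67 protocadherin genes 2 rose (2.99% called), Pcdhgb2 (0.34) and Pcdhac1 (0.42), which share 3′ exons with their clusters. Of 55 kinesin and dynein genes 3 fell (5.45%, beside 4.52% of all genes called), Dynlrb1 (−0.30), Klc1 (−0.25) and Kif3a (−0.20).

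Of 23 neuropeptide genes 3 fell and 0 rose (median −0.14). Npy, a peptide of cortical interneurons, had 37.8 to 49.5 CPM in controls (median 40.5) and 22.1 to 42.6 CPM in CSS (median 31.6). CSS 2 lay within the control range and CSS 5 was the lowest (log2 −0.46 ± 0.11, adjusted p = 0.0243), and the call was lost without CSS 6 or CSS_control 2 (adjusted p up to 0.0517). Sst, the somatostatin gene, had 66.5 to 88.3 CPM in controls (median 75.6) and 50.9 to 73.3 CPM in CSS (median 63.2). CSS 1, 2 and 3 lay within the control range (log2 −0.30 ± 0.07, adjusted p = 0.0279), and the call was lost without CSS 6 or CSS_control 1, 2 or 5 (adjusted p up to 0.0612). Nucb2, the precursor of nesfatin, fell by 0.31. The corticotropin-releasing hormone gene Crh, outside the rule, stood at −0.09 ± 0.17 (adjusted p = 0.802).

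Small non-coding RNAs were called often, and only as higher. By annotated biotype 9 of 27 snoRNA, 5 of 12 snRNA and 2 of 6 scaRNA genes rose and none fell. These shares were 33.3%, 41.7% and 33.3%, beside 2.11% of all genes called higher. Of a list of 23 small nuclear, nucleolar, Cajal body and Y RNAs 6 rose and 0 fell (median 0.44), also 6 and 0 with the length trend removed, while the median with the title code as a factor was 0.13. Scarna6 guides chemical changes of spliceosomal RNA in the Cajal body, and Snora73b is an H/ACA snoRNA that acts in ribosomal RNA cleavage. Both are shown because they are the Cajal body and nucleolar RNAs of that list with the smallest p. Sequences are from GENCODE M21 (GRCm38, Scarna6 at chr1:87784556-87784820 and Snora73b at chr4:132352322-132352526). Capitals mark the C box TGATGA and the last CTGA, the D box letters, in Scarna6, and the last ACA, 3 bases from the end, in Snora73b.
Scarna6: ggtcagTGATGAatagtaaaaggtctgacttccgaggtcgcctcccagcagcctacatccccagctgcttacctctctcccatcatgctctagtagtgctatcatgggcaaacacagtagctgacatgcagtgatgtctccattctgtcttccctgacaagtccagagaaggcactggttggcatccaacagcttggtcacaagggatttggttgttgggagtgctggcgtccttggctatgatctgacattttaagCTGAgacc
Snora73b: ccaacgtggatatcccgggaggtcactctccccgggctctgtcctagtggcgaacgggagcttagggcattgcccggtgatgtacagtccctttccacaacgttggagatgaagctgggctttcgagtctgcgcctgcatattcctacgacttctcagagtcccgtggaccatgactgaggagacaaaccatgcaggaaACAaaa
Scarna6 had 1.97 to 3.83 CPM in controls (median 2.48) and 2.75 to 8.10 CPM in CSS (median 6.00). CSS 1 and CSS 2, of code numbers 1 and 2, lay within the control range and the other 6 above it (log2 1.19 ± 0.20, adjusted p = 0.00753). Snora73b had 3.504 to 6.46 CPM in controls (median 4.82) and 4.43 to 11.7 CPM in CSS (median 8.72). The same 2 CSS libraries lay within the control range (log2 0.76 ± 0.17, adjusted p = 0.0190), and all of its bases are overlapped by Gm17300 on the opposite strand. Rny3, a Y RNA bound by the Ro protein, had 7.56 to 19.2 CPM in controls (median 13.2) and 15.6 to 47.7 CPM in CSS (median 29.0). Again CSS 1 and CSS 2 lay within the control range (log2 1.22 ± 0.24, adjusted p = 0.0160). Rny1 (1.005), Scarna10 (0.84) and Snora74a (0.62) also rose, and the last 2 share most of their exon bases with another gene on the same strand. Of 1017 long non-coding RNA genes 12 rose and 9 fell, a share of 2.06% beside 4.52% of all genes.

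The last comparison asked where the CSS change differed from that in the T2D cohort. By edgeR's quasi-likelihood test of the difference over all 28 libraries, 12 of 14888 shared genes passed (0.0806%), each with an adjusted p of 0.0485, 7 with a higher and 5 with a lower change in CSS. Before adjustment, 1840 genes (12.4%) had p under 0.05. T2D against its own controls called 0 of 15054 genes (0%), with 879 at an unadjusted p under 0.05. Spred1 had a log2 change of 0.36 ± 0.06 in CSS and −0.25 ± 0.10 in T2D, a difference of 0.60 ± 0.12. Dnajc3 changed by 0.28 ± 0.05 and −0.27 ± 0.10, and the synaptic adhesion gene Igsf9b by 0.38 ± 0.10 and −0.40 ± 0.11. The cadherin gene Cdh19 (difference 0.72), 9330159F19Rik (0.49), Snora74a (1.125) and Sgsm1 (0.63) were the other genes with a higher change in CSS. The actin regulator gene Coro1b changed by −0.30 ± 0.06 in CSS and 0.10 ± 0.06 in T2D, and C2cd2l by −0.37 ± 0.06 and 0.12 ± 0.08. The orphan receptor gene Gpr12 had a difference of −0.74. The CSS calls of Gpr12, Igsf9b, Cdh19 and Snora74a were kept in 4, 6, 8 and 12 of the 16 fits that left out 1 library. Those of Spred1, Dnajc3, C2cd2l, 9330159F19Rik and Coro1b were kept in all 16. Of the 12, 11 were also called in CSS. The exception, Sh3bgrl2, stood at −0.10 ± 0.08 in CSS and 0.44 ± 0.08 in T2D (difference −0.55). The cohorts differ in age, treatment and table, so which of these goes with a difference cannot be told apart.

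**Figure D5:**
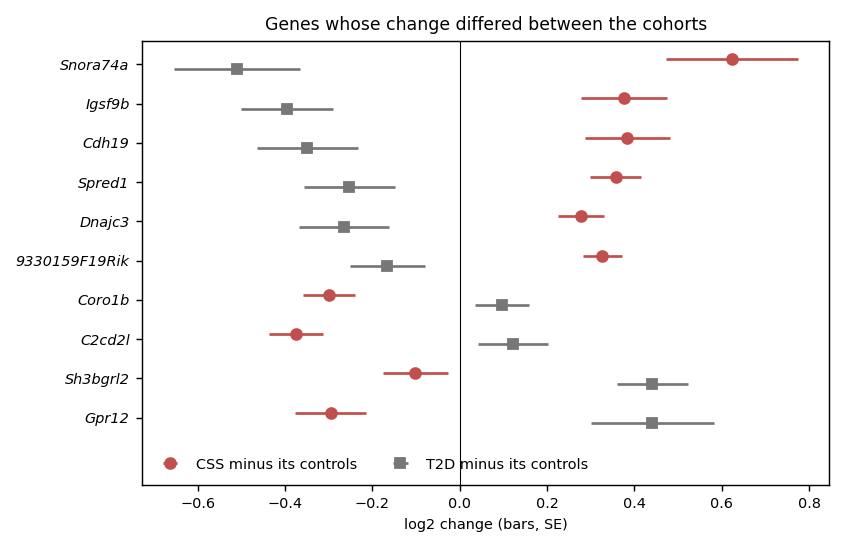
Log2 change against own controls (x axis; bars, SE) in CSS (circles) and T2D (squares) for 10 of the 12 genes whose change differed between the cohorts (y axis). In each of the 10 the CSS and T2D changes lie on opposite sides of 0, which picking genes by the difference favours. None of the T2D changes was called.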

How the data were processed

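RNA sequencing of frontal cortex from 16 mice (stranded libraries of total RNA depleted of ribosomal RNA, per the labels' protocols) was analysed, with 12 libraries of a second cohort for the difference between cohorts only. The authors quantified transcripts with Salmon 1.1.0 and name the mm10 build, per the submitters' processing notes, and deposited estimated counts per gene in a table for each cohort. How transcripts were summed to genes, and whether strand was used, is not given in the sources used here.

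Estimated counts were rounded to whole numbers. Genes passing edgeR's default filter (all 15097) were scaled by TMM and fitted with edgeR's robust quasi-likelihood test (edgeR 4.0.16, R 4.3.3), Benjamini-Hochberg adjusted p at or under 0.05. CPM are TMM-scaled. Log2 CPM, used for slopes, principal components, placements and the pairing check, have a prior count of 2. Log2 changes of genes are those of the fit, to which that prior count was not applied. Library values (9) were compared by two-sided exact permutation tests. The difference between cohorts was an interaction term over the 14888 genes of both tables. Transcript length, GC and overlaps came from GENCODE M21 (99.8% of identifiers matched), using the longest transcript.

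Named genes were the 15 of smallest p in each direction whose mean log2 CPM reached 1 or more, without a predicted-model or pseudogene symbol, up to 3 members of smallest p and further called members of each of 51 lists, up to 5 in each direction called with and without the title code, and 5 in each direction of the difference between cohorts. Sgsm1 and the genes said to lie outside this rule were added after their values were seen. The genes, lists and comparison were chosen with earlier results of these data known. Replicates are separate mice, per the labels' protocols.

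Simulated data with the same depths held 67 genes changed 1.25-fold, 67 changed 1.5-fold and 66 changed 2-fold. The test recovered 38.8%, 80.6% and 95.5% of them, with 6 false calls among 15097 genes. Recovery and false calls under an uneven title code or a length trend were not tested. Totals were 14.3 to 37.5 M. Alternatives used DESeq2 1.42.0, limma 3.58.1 (voom), sva 3.50.0, other scalings and filters, the RNA integrity number, title code, replicate number, length trends and left-out libraries. Same-numbered libraries of both groups correlated at −0.16 to 0.33 in their deviations, over 0.1 in 3 of 8 pairs, so the numbers were not taken to pair the samples. Figures were drawn with matplotlib 3.10.9 in Python 3.11.15. Some called genes are not reported here by name.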

Additional observations from a re-analysis of the deposited data

Results flagged for a closer look

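In 7 of 96 groups of 8 values tested, an extreme library stood further from the rest than Dixon's 95% criterion allows, which chance passes in about 1 of 20 groups. For Anks1, CSS_control 3 had 23.3 CPM beside 27.2 to 30.6 CPM in the other controls. For Scarna6, CSS_control 8 had 3.83 CPM beside 1.97 to 2.58 CPM. For Ubxn1, CSS 5 had 29.2 CPM beside 37.3 to 43.8 CPM in the other CSS libraries. CSS_control 2 had a total of 37.5 M counts beside 14.3 to 20.8 M, and a value of −25.7 on the first principal component beside −13.0 to −4.52. CSS_control 8 had an RNA integrity number of 10.0 beside 9.3 to 9.6. CSS 5 had a length slope of 0.105 log2 units per doubling beside −0.00827 to 0.0167.

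For 10 named genes the change in CSS differed from that in T2D by edgeR's quasi-likelihood test of the difference (adjusted p = 0.0485 each). The difference in log2 change was 0.603 for Spred1, 0.536 for Dnajc3, 0.486 for 9330159F19Rik, 1.125 for Snora74a, 0.765 for Igsf9b and 0.723 for Cdh19. It was −0.505 for C2cd2l, −0.403 for Coro1b, −0.551 for Sh3bgrl2 and −0.743 for Gpr12.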

How the results depend on the processing

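The 683 calls (318 higher, 365 lower) moved by over 1.5 times in count, or in 1 direction, under these settings. DESeq2 called 1313 (616 higher, 697 lower), and 1 surrogate variable gave 1001 (492 higher, 509 lower). The title code as a factor gave 2 (2 higher, 0 lower), and leaving out the 4 controls of code number 1 gave 0 in each direction, with a smallest adjusted p of 0.225. The length slope as a covariate gave 246 (143 higher, 103 lower) and length offsets 436 (181 higher, 255 lower). Chosen after seeing the data, length and GC slopes gave 278 (157 higher, 121 lower), leaving out CSS 5 and CSS_control 5 gave 232 (105 higher, 127 lower), and that with the length slope 360 (175 higher, 185 lower). Leaving out 1 library gave 222 to 794 calls, 94 to 350 higher and 128 to 444 lower. The cause of these shifts was not tested, except that fits with fewer libraries have fewer samples. Counts were 649 to 782 under other scalings, filters, voom, non-robust estimation, unrounded counts and the RNA integrity number. The difference from T2D gave 5 genes without scaling and 130 with DESeq2. The mean mitochondrial percent was lower in CSS by −0.777 points (adjusted p = 0.191), and leaving out 1 library gave −0.976 to −0.523, with the −0.976 without CSS 1 at an adjusted p of 0.0322.

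With the replicate number as a block 478 genes were called (199 higher, 279 lower), 401 of them among the 683. In the pairing check 2 of 8 libraries correlated best with their own number.

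No called gene among the named ones changed sign in any setting run, while 6 that were not called did (Clic6, Cspg4, Foxj1, Gabrd, Grin2d and Ptprc). The settings used the same libraries as the calls, which favours a kept sign. Cspg4 went from 0.39 to −0.02 and Ptprc from 0.14 to −0.03 with the title code. With length offsets the calls among ribosomal protein genes went from 2 higher and 4 lower to 8 and 2, and those among nuclear respiratory chain genes from 0 and 5 to 3 and 2. Of 219 named genes, 60 kept their side of the threshold with the title code and 156 with length offsets. Calls were fewer among genes of low level, with 1.23% of the lowest of 5 bins by level called beside 7.68% of the highest. The part of depth in this was not tested.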
